A study of Mus musculus with 6 samples.

Results

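The 4 genes described here encode the precursors of the brain's own opioid peptides and an enzyme that processes them: Penk, Pdyn, Pomc and Cpe. They were chosen as the probes with exactly one of these symbols in the platform annotation, which gave 7 of 11502 probes: 2 for Penk, 3 for Cpe, and 1 each for Pdyn and Pomc. All 7 had a value on every array, none was at the lower limit of the scale, and all passed the filter on missing values.

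The series measured total RNA of mouse brain on 6 two-colour BMAP cDNA microarrays, on which each spot is a cDNA clone of a brain library. All animals were males aged 9 weeks, treated for 10 min at a dose and by a route that the labels do not give. On each array, RNA after naloxone, an antagonist of the opioid receptors, carried Cy5, and RNA after saline, from mice of the same strain, carried Cy3. The study asked how sickle and wild-type brains respond to naloxone, with 3 arrays for NY1DD, a transgenic line that carries human sickle globin, and 3 for wild-type C57BL/6J. The saline mice of the same strain are thus the only control, and no array set one strain against the other. The labels speak of brains in the plural and say neither whether RNA was pooled nor whether arrays or their saline RNA came from separate animals. C57BL/6J replicates 1 and 2 also share a number in their titles whose meaning is not stated. P-values therefore measure only the spread between arrays, which may be technical. No title number occurs in both strains, so strain and whatever the number marks cannot be told apart.

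A value is a log2 ratio of the 2 channels, centred on the median of its array, and is likely naloxone over saline: the submitters' design text assigns Cy5 to naloxone but does not name the numerator. Were it the other way round, all signs would be opposite. Dyes were never swapped, so naloxone and a shared dye bias cannot be told apart in the mean of a strain. A dye bias equal in both strains cancels in the strain difference, while a bias that differs between them does not. The ratios carry no level, so it is unknown which precursor was more abundant, and signal over background is unknown for every spot. In RNA of bulk brain tissue, fewer cells of a type and less RNA per cell cannot be told apart. Usable probes per array ran from 11155 to 11413. Where 3 values of a strain are listed, they are those of replicates 1, 2 and 3. A probe is named by its place on the source plates: 108b8 is plate 108, row b, column 8.

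Opioid peptides are cut out of larger precursor proteins inside secretory granules. Penk yields the enkephalins, which act mainly on delta and mu receptors; Pdyn yields the dynorphins, which act mainly on kappa receptors; Pomc yields beta-endorphin together with adrenocorticotropin and melanocyte-stimulating hormones. Prohormone convertases cut these precursors at pairs of basic residues, and Cpe, carboxypeptidase E, then trims the basic residues left at the end of each peptide. In the brain Penk is best known for its high expression in striatal neurons, Pdyn for striatum, hippocampus and hypothalamus, and Pomc for the arcuate nucleus of the hypothalamus and, outside the brain, the pituitary, while Cpe is made by most peptide-secreting neurons.

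Limma, fitted to all 9685 features with a mean per strain, called 0 of the 4 genes at an adjusted p under 0.05 in any comparison. The background was the same: 0 of 9685 features (0%) passed for the NY1DD mean, the C57BL/6J mean, their difference or the average of both strains. At an unadjusted p under 0.05 limma counted 809 features (8.35%) for NY1DD, 671 (6.93%) for C57BL/6J, 436 (4.5%) for the difference and 1043 (10.8%) for the average. Of the 4 genes, 0 were among them for NY1DD, 0 for C57BL/6J, 1 (Penk) for the difference and 1 (Cpe) for the average. Statements on members below are therefore descriptions of values with their error, and none is a call.

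**Figure D1:**
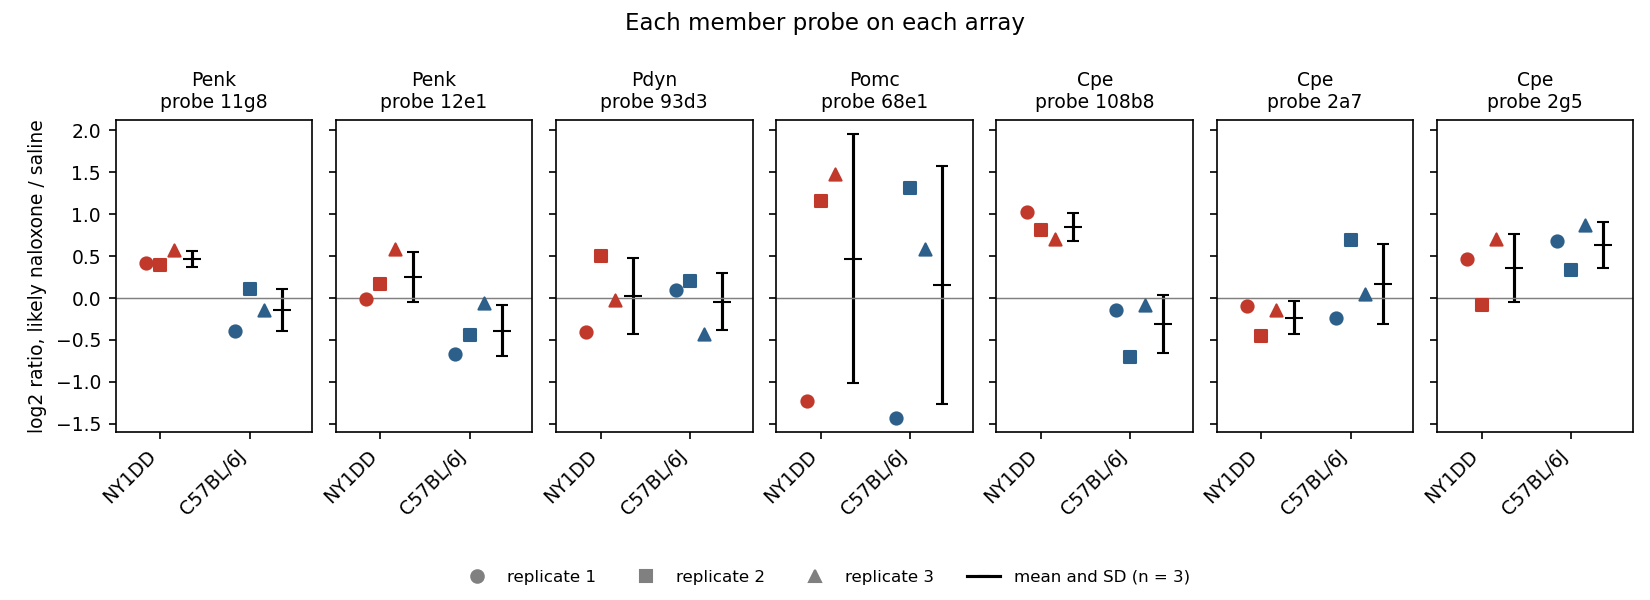
The log2 ratio (y axis, likely naloxone over saline) of each of the 7 probes on each array, with NY1DD in red, C57BL/6J in blue, a marker shape per replicate, and black bars for the mean and SD of the 3 arrays. Both Penk probes and Cpe probe 108b8 have every NY1DD array above every C57BL/6J array, while the Pomc probe runs from -1.43 to 1.48.

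Penk, the enkephalin precursor, had positive ratios in sickle mice and negative ratios in wild-type mice on the mean of its 2 probes. The gene mean was 0.21, 0.28 and 0.57 in NY1DD, against -0.53, -0.17 and -0.10 in C57BL/6J. All NY1DD arrays were above all C57BL/6J arrays, with the narrowest gap, between NY1DD replicate 1 and C57BL/6J replicate 3, spanning 0. The NY1DD mean was 0.35 (SD 0.19, limma SE 0.15, n = 3), a ratio of 1.28, with a 95% interval from -0.0036 to 0.71 (limma adjusted p = 0.588). The C57BL/6J mean was -0.26 (SD 0.23, limma SE 0.15, n = 3), a ratio of 0.833, with a 95% interval from -0.62 to 0.09 (limma adjusted p = 0.861). Without C57BL/6J replicate 1, its lowest array, the C57BL/6J mean was -0.13.

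The strain difference of Penk was 0.62 (SE 0.21, 95% interval 0.11 to 1.12), a ratio of ratios of 1.53, with a limma unadjusted p of 0.0232 and an adjusted p of 0.969. The exact permutation test of the 6 arrays, two-sided, gave p = 0.1, the smallest that 3 arrays against 3 allow. Among the 9175 features measured on all 6 arrays, 9.41% had strains that did not overlap in either direction, and 5.21% had NY1DD above C57BL/6J, so 1 gene of 4 with this pattern is to be read against that background. A stricter pattern, all NY1DD arrays above 0 and all C57BL/6J arrays below 0, held for Penk and for 105 features (1.14%). The average over both strains was 0.04 (SE 0.11), since the strains lay on opposite sides of 0.

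The 2 Penk probes gave nearly the same strain difference. Probe 11g8 read 0.42, 0.39 and 0.57 in NY1DD, against -0.39, 0.11 and -0.14 in C57BL/6J. Probe 12e1 read -0.01, 0.17 and 0.58 in NY1DD, against -0.66, -0.44 and -0.06 in C57BL/6J. Neither probe had overlapping strains, although for 12e1 the nearest arrays, at -0.01 and -0.06, were close, and only 11g8 was positive on every NY1DD array and only 12e1 was negative on every C57BL/6J array. Their strain differences were 0.60 (SE 0.21) and 0.64 (SE 0.26), 0.03 apart, and their correlation over the 6 arrays was 0.83. Both probes report the same RNA on the same arrays, so they are not separate replicates of the mice.

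**Figure D2:**
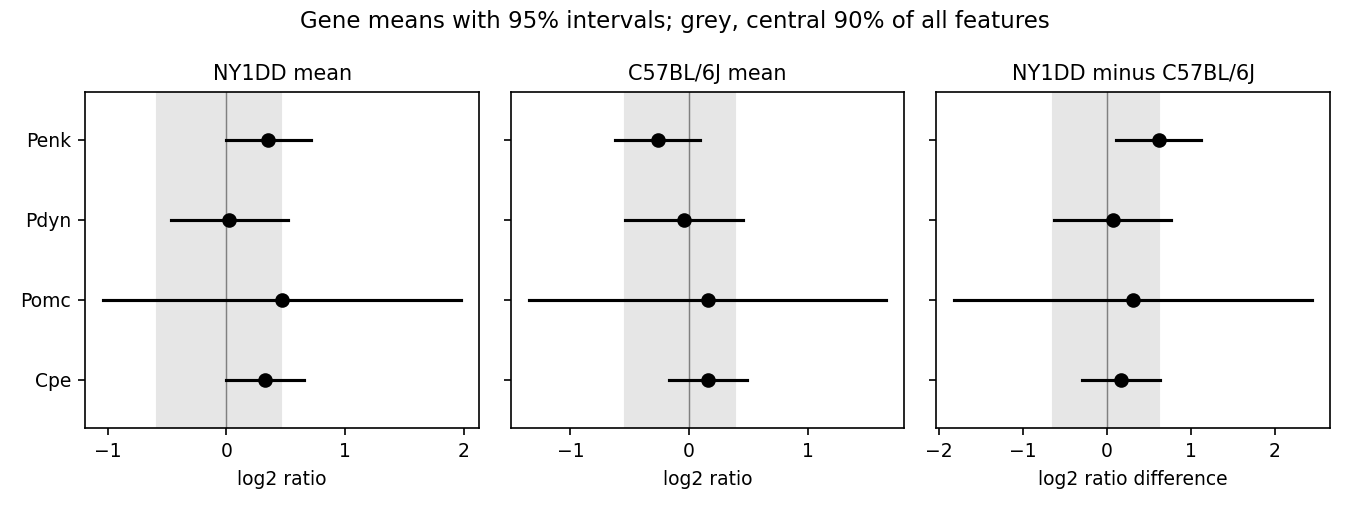
Estimates for the 4 genes (points) with limma 95% intervals (lines) on the log2 scale (x axis): NY1DD mean, C57BL/6J mean and their difference; the grey band holds the central 90% of all 9685 features. The interval of Penk excludes 0 in the difference (0.11 to 1.12) before adjustment, and that of Pomc is the widest in each panel.

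Genes that mark striatal neurons were read beside Penk because that tissue is rich in it. Of 16 such genes other than the members, 10 were measured (Ppp1r1b, Pde10a, Pde1b, Rasd2, Gnal, Adcy5, Foxp1, Ptpn5, Arpp21 and Rasgrp2). Their median log2 ratio was 0.18, 0.18 and 0.44 in NY1DD, against 0.04, -0.02 and 0.01 in C57BL/6J. All NY1DD arrays were thus above all C57BL/6J arrays in this list as well. The median of 11 astrocyte markers separated the strains too, with NY1DD below. It was -0.02, -0.06 and -0.09 in NY1DD, against 0.01, 0.04 and 0.05 in C57BL/6J. For the NY1DD mean, 7 of the 10 striatal markers were positive (median 0.19, against -0.02 over all features). For the strain difference 7 of 10 were positive (median 0.08, against -0.01), with 0 past the adjusted threshold (limma) in either. At an unadjusted p under 0.05 limma counted 3 of the 10 in NY1DD (against 8.35% of all features) and 2 of the 10 in the difference (against 4.5%). As for Penk, every NY1DD array was above every C57BL/6J array in 3 of the 10, Foxp1, Rasgrp2 and Ppp1r1b, named after their values were seen. Of all features measured on all 6 arrays, 5.21% had NY1DD above C57BL/6J in this way. Foxp1, a transcription factor, read 0.72, 0.29 and 0.63 in NY1DD, against 0.05, -0.15 and 0.14 in C57BL/6J. Rasgrp2, a Ras-family exchange factor, read 0.44, 0.44 and 0.49 in NY1DD, against -0.01, -0.02 and 0.04 in C57BL/6J. Ppp1r1b, which encodes the dopamine-regulated phosphatase inhibitor DARPP-32, read 0.77, 0.35 and 0.46 in NY1DD, against -0.03, 0.35 and -0.49 in C57BL/6J. Its replicates 2 were nearly tied, at 0.3519 in NY1DD and 0.3503 in C57BL/6J. The strain differences of these 3 genes were 0.53 (SE 0.21), 0.45 (SE 0.17) and 0.58 (SE 0.27). They were picked for separated strains, so a difference near that of Penk follows in part from the pick. The remaining genes with a positive difference were Pde10a, Arpp21, Gnal and Adcy5. Their NY1DD and C57BL/6J means were 0.21 and -0.21, 0.22 and 0.13, 0.06 and 0.04, and -0.03 and -0.11. Another 3 of the 10 had a negative strain difference. The NY1DD and C57BL/6J means were 0.17 and 0.22 for Pde1b, -0.06 and 0.13 for Rasd2, and -0.21 and -0.07 for Ptpn5. The dopamine receptor genes Drd1 and Drd2 and the adenosine receptor gene Adora2a were not analysed here. The part of these markers in the Penk values was not tested.

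Pdyn, the dynorphin precursor, showed no direction in either strain. Its single probe, 93d3, read -0.40, 0.50 and -0.02 in NY1DD, against 0.10, 0.20 and -0.43 in C57BL/6J. The strains overlapped over most of their range, and each held arrays on both sides of 0. The NY1DD mean was 0.03 (SD 0.45, limma SE 0.21, n = 3, adjusted p = 0.983) and the C57BL/6J mean -0.04 (SD 0.34, limma SE 0.21, n = 3, adjusted p = 0.993). The strain difference was 0.07 (SE 0.30), and its limma 95% interval, -0.63 to 0.77, holds the strain difference of Penk (0.62). These arrays therefore do not show that Pdyn and Penk differed in this respect, and the difference between the genes was not tested.

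Pomc, the beta-endorphin precursor, had the widest spread of the 4 genes. Its single probe, 68e1, read -1.23, 1.16 and 1.48 in NY1DD, against -1.43, 1.31 and 0.58 in C57BL/6J. In both strains replicate 1 was far below 0 and the other 2 arrays were above it. As ratios, these values run from 0.372 on C57BL/6J replicate 1 to 2.79 on NY1DD replicate 3. Of its 6 values, 5 were past 2-fold in one direction or the other, against 5.31% of all probe values, and the other Pomc value was a ratio of 1.50. On its own array, the probe stood at the 2.74th and 0.752th percentile of all probes on the replicates 1, and between the 91.8th and 99.1th percentile on the other 4 arrays.

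The mean of Pomc was 0.47 (SD 1.48, limma SE 0.64, n = 3, adjusted p = 0.849) in NY1DD and 0.16 (SD 1.42, limma SE 0.64, n = 3, adjusted p = 0.991) in C57BL/6J. The strain difference was 0.31 (SE 0.90, limma 95% interval -1.82 to 2.44), an interval too wide to place it on either side of 0. Its SD within strains, 1.45, was larger than that of 99.2% of the 9175 features measured on all 6 arrays, whose median was 0.32. The means turned sign when single arrays were left out: the NY1DD mean was 1.32 without replicate 1 and -0.03 without replicate 3. The C57BL/6J mean was 0.95 without replicate 1, -0.42 without replicate 2 and -0.06 without replicate 3.

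The same replicate numbers in the 2 strains are not stated to pair arrays, so the common low value of the replicates 1 is a description. Replicate 1 lay below replicates 2 and 3 in both strains for 819 of 9175 features (8.93%). Since Pomc RNA is concentrated in hypothalamus and pituitary, markers of both were read beside it. Of 11 other pituitary markers 1 was measured, Gh, the growth hormone gene, with -0.63, 0.32 and -0.63 in NY1DD, against 0.19, 0.12 and -1.0 in C57BL/6J. Gh was low with Pomc on NY1DD replicate 1, but on NY1DD replicate 3 and C57BL/6J replicate 3 it was below 0 where Pomc was above, and on C57BL/6J replicate 1 the reverse held. The other pituitary markers, Prl among them, were not analysed here.

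Of 15 other hypothalamus markers 2 were measured. Trh, the precursor of thyrotropin-releasing hormone, ran from -0.35 to 0.01 over the 6 arrays. Cartpt, a precursor of satiety peptides, ran from -0.66 to -0.03. Neither varied as widely as Pomc. Both had their lowest C57BL/6J value on replicate 1, as Pomc did, while in NY1DD neither had its lowest value there. Hba-a2, an alpha globin gene and the one blood marker of 13 that was measured, read 0.80, -0.66 and -0.36 in NY1DD, against -0.81, 0.88 and -0.53 in C57BL/6J, so it was high on NY1DD replicate 1 and low on C57BL/6J replicate 1, while Pomc was low on both. The part of tissue content in the Pomc values was not tested.

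**Figure D3:**
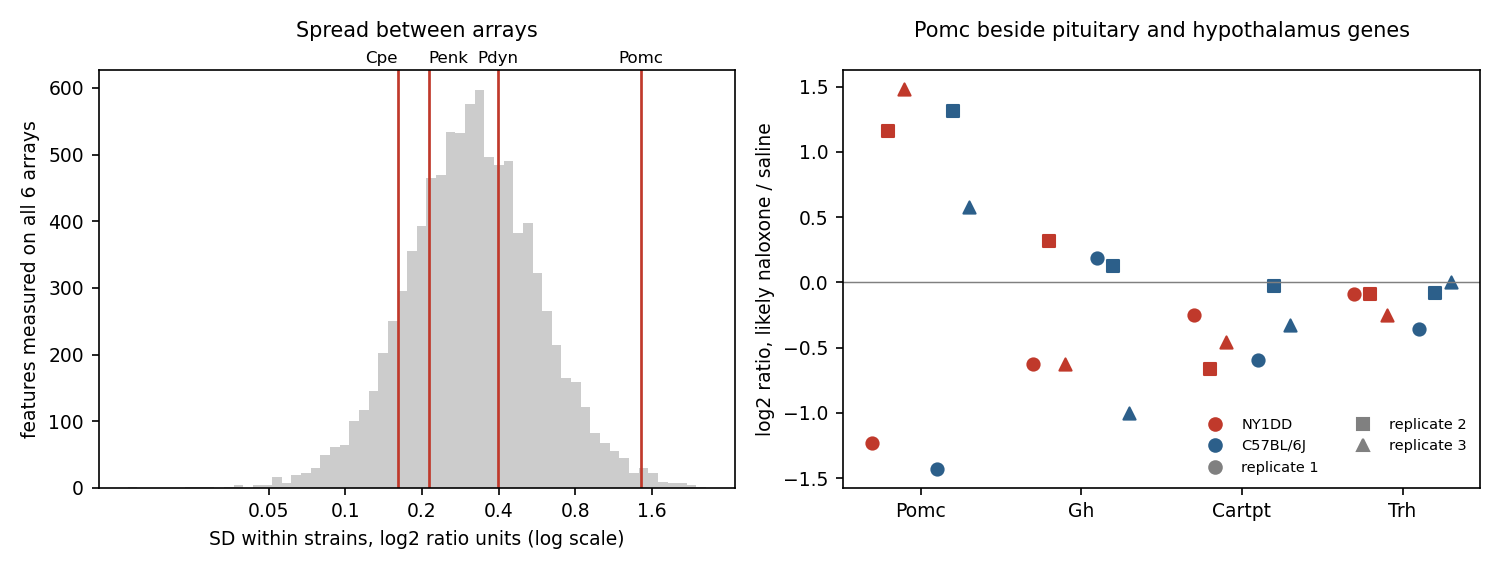
Left, the number of features (y axis) by their SD within strains (x axis, log scale), with red lines at the 4 genes: Cpe 0.16, Penk 0.21, Pdyn 0.40 and Pomc 1.45. Cpe averages 3 probes and Penk 2, while Pdyn and Pomc have 1 each. Right, the log2 ratio of Pomc, the pituitary gene Gh and the hypothalamus genes Cartpt and Trh on each array, by strain (colour) and replicate (shape); the Pomc values span 2.91 and those of Trh lie between -0.35 and 0.01.

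Cpe, the carboxypeptidase, is the gene whose 3 probes went different ways. Averaged, it was positive on 6 of 6 arrays: 0.47, 0.09 and 0.42 in NY1DD, against 0.10, 0.11 and 0.28 in C57BL/6J. The strains overlapped. The NY1DD mean was 0.33 (SD 0.20, limma SE 0.14, n = 3, adjusted p = 0.588), and the C57BL/6J mean was 0.16 (SD 0.10, limma SE 0.14, n = 3, adjusted p = 0.955). The average over both strains was 0.24 (SE 0.10, limma 95% interval 0.01 to 0.48), a ratio of 1.18, with an unadjusted p of 0.042 and an adjusted p of 0.443. The strain difference was 0.16 (SE 0.20, limma adjusted p = 0.969).

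Probe 108b8 carried a strain difference that the other 2 Cpe probes did not show. It read 1.03, 0.81 and 0.70 in NY1DD, against -0.14, -0.71 and -0.09 in C57BL/6J. Every NY1DD array was at least at the 96.1th percentile of all probes on that array, and every C57BL/6J array was below 0. Its NY1DD mean was 0.85 (SD 0.17, n = 3), a ratio of 1.80, and its C57BL/6J mean was -0.31 (SD 0.34, n = 3). With every probe fitted on its own, the strain difference was 1.16 (SE 0.24, 95% interval 0.59 to 1.73), a ratio of ratios of 2.24; it ranked 15th of 11340 probes by p (limma unadjusted p = 0.00184, adjusted p = 0.972).

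Probe 2a7 read -0.10, -0.45 and -0.15 in NY1DD, against -0.24, 0.70 and 0.05 in C57BL/6J. It was the lowest of the 3 Cpe probes on every NY1DD array, and its strain difference was -0.40 (SE 0.28, limma adjusted p = 0.972). Probe 2g5 read 0.47, -0.08 and 0.71 in NY1DD, against 0.69, 0.33 and 0.87 in C57BL/6J. It was positive on 5 of 6 arrays, with an average over both strains of 0.50 (SE 0.14, limma unadjusted p = 0.00832, adjusted p = 0.27) and a strain difference of -0.27 (SE 0.27). Leaving out 1 array at a time moved the difference of 2a7 to between -0.61 (without C57BL/6J replicate 1) and -0.14 (without C57BL/6J replicate 2), and that of 2g5 to between -0.44 (without NY1DD replicate 3) and -0.04 (without NY1DD replicate 2); that of 108b8 stayed between 0.96 and 1.27. In C57BL/6J the mean of 2g5 was 0.63 (SE 0.19), against 0.17 (SE 0.20) for 2a7 and -0.31 (SE 0.17) for 108b8, so the positive gene mean there comes mostly from 2g5.

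Within an array, the highest and lowest Cpe probe were 0.86 to 1.40 apart. Probe 108b8 exceeded the mean of the other 2 by 0.85, 1.08 and 0.42 on the NY1DD arrays and differed from it by -0.37, -1.22 and -0.55 on the C57BL/6J arrays. The gene mean does not show this spread: it had an SD within strains of 0.16, smaller than that of most features (12.2th percentile). It averages 3 probes, while most features hold a single probe, and averaging can lower an SD. The SDs of single Cpe probes in a strain ran from 0.17 to 0.48. Clone sequences were not used here, so which part of the Cpe transcript a probe covers, and whether a probe also binds other transcripts, is unknown here.

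Over all genes with more than 1 probe measured on all arrays, 1856 pairs of probes of 1196 genes were compared as a description. The median correlation of a pair over the 6 arrays was 0.12, and 57.8% were positive. The Penk pair, at 0.83, was at the 94.6th percentile. The Cpe pairs were at -0.73 (108b8 with 2a7), -0.26 (108b8 with 2g5) and 0.14 (2a7 with 2g5). The gap between the 2 probes of a pair in the strain difference had a median of 0.27. It was 0.03 for Penk, and 1.56 and 1.43 for the Cpe pairs that hold 108b8, at the 99.2th and 98.7th percentile, while the remaining Cpe pair had 0.13.

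**Figure D4:**
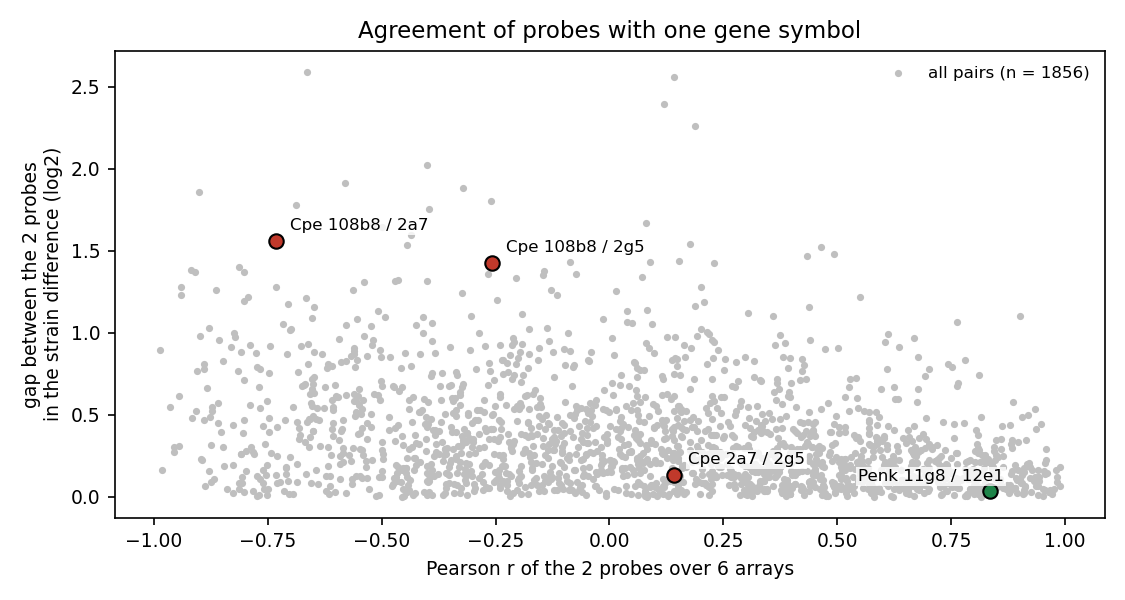
Each point is a pair of probes with one gene symbol (n = 1856): the Pearson correlation of the 2 probes over 6 arrays (x axis) against the gap between their strain differences on the log2 scale (y axis). The Penk pair (green) lies at the lower right, with r = 0.83 and a gap of 0.03, and both Cpe pairs that hold probe 108b8 (red) have gaps of 1.56 and 1.43.

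Counted by probe, 3 of the 7 had strains that did not overlap (11g8, 12e1 and 108b8), all with NY1DD above, and these come from 2 genes. Fitted one by one, limma gave an unadjusted p under 0.05 to 2 of the 7 probes for NY1DD (11g8 and 108b8, against 8.29% of all probes), 1 for C57BL/6J (2g5, against 6.68%), 3 for the difference (11g8, 12e1 and 108b8, against 4.3%) and 1 for the average (2g5, against 10.6%), with 0 past the adjusted threshold. The share of all probes without overlap was 9.37% in either direction and 5.14% with NY1DD above. Of the 42 probe values of the members, 14 were past 1.5-fold in either direction, against 16.2% of all probe values. Cpe held 8 of these, Pomc 5, Penk 1 and Pdyn 0.

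Plate position was checked as well. Penk probe 12e1 and Pomc probe 68e1 come from the same well, e1, of 2 plates, and the median of that well ran from -0.20 to 0.17 over the 6 arrays. The largest well median behind a member was -0.33, for 2a7 on NY1DD replicate 3, where the probe itself read -0.15. For 2g5 the well median read 0.16, -0.33 and 0.27 in NY1DD, against 0.17, 0.12 and 0.16 in C57BL/6J. In NY1DD both this median and probe 2g5 were lowest on replicate 2 and highest on replicate 3. The part of plate position in the values of 2a7 and 2g5 was not tested. With each array centred within wells, the strain difference of Penk was 0.62 and that of Cpe probe 108b8 was 1.11. Only Pdyn among the 4 genes changed the sign of a strain mean or of the strain difference, with an NY1DD mean of -0.05 and a difference of -0.01.

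The 4 genes did not vary together in one way. As a description over 6 arrays, the correlation of gene means was 0.61 for Penk and Cpe, 0.52 for Penk and Pomc, 0.40 for Pdyn and Pomc, 0.01 for Penk and Pdyn, -0.13 for Pomc and Cpe, and -0.74 for Pdyn and Cpe. All 4 had a positive NY1DD mean and a positive strain difference, against 47.5% and 48.3% of all features. In C57BL/6J, 2 of 4 (Pomc and Cpe) had a positive mean, against 49.9%. Leaving out 1 array moved the strain difference of Pdyn to between -0.17 and 0.28 and that of Pomc to between -0.48 and 1.17. Cpe probes 2a7 and 2g5 had negative strain differences (-0.40 and -0.27).

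The 3 genes that correlated best with each member over the 6 arrays were picked by Pearson r among 5853 other genes measured on all arrays. Such a correlation does not compare level or size: Acot13, picked for Pomc, ran from -0.40 to -0.16, while Pomc ran from -1.43 to 1.48. A high correlation over so few arrays is common: 24 genes had r above 0.9 with Penk, 127 with Pdyn, 25 with Pomc and 27 with Cpe. For Penk the 3 picked genes were Papola, a poly(A) polymerase (r = 0.97), Psma7, a proteasome subunit (0.97), and Rps19bp1 (0.95). For Pdyn they were Spon1, a secreted matrix protein (0.997), Tgfb2, a growth factor (0.994), and Lgi3 (0.993). For Pomc they were Acot13, a thioesterase (0.97), Rufy3 (0.97) and Tmem126a, a mitochondrial protein (0.96). For Cpe they were Syt11, a synaptotagmin (0.99), Ms4a6b (0.97) and Dok5, a docking protein (0.97).

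The receptors and signal regulators on which opioid peptides act were covered in part. Of 22 listed genes 11 were measured, and the receptor genes Oprm1, Oprd1, Oprk1 and Oprl1 were not analysed here. In NY1DD 3 of 11 were positive (median -0.07, against -0.02 over all features), in C57BL/6J 7 of 11 (median 0.04, against -0.00), and for the strain difference 6 of 11 (median 0.02, against -0.01), with 0 past the adjusted threshold (limma) in each. Rgs7, which shortens the signal of inhibitory G proteins, had -0.53 (SE 0.16, n = 3) in C57BL/6J and 0.45 (SE 0.16, n = 3) in NY1DD, with a difference of 0.98 (SE 0.22, limma unadjusted p = 0.00282, adjusted p = 0.969). Its gene mean was positive on 3 of 3 NY1DD arrays (0.41, 0.33 and 0.60) and negative on 3 of 3 C57BL/6J arrays (-0.56, -0.81 and -0.23), the same pattern as Penk. The 2 Rgs7 probes did not both have a value on every array. Over all settings run, each Rgs7 probe on its own included, the difference ran from 0.76 to 1.19. Gnai1, an inhibitory G protein subunit, had -0.74 (SE 0.32) in NY1DD and a difference of -0.84 (SE 0.45). Without NY1DD replicate 1, where it read -1.79, these were -0.22 and -0.32, and its 2 probes had differences of -0.07 and -1.61. Rgs4, a related regulator, had 0.32 (SE 0.16) in NY1DD and 0.16 (SE 0.16) in C57BL/6J, Ogfr, the opioid growth factor receptor, had -0.17 (SE 0.15) in C57BL/6J, and Arrb2, a beta-arrestin that desensitises receptors, had a difference of -0.27 (SE 0.27).

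Among the convertases, carboxypeptidases and other processing enzymes, 10 of 19 listed genes were measured, Cpe included, and Pcsk1 and Pcsk2, the main convertases of these precursors, were not analysed here. In NY1DD 4 of 10 were positive (median -0.10), in C57BL/6J 2 of 10 (median -0.15) and for the strain difference 6 of 10 (median 0.02), with 0 past the adjusted threshold (limma). Cpe had the highest mean of the list in both strains. Furin, a convertase of the constitutive pathway, and Pam, which amidates peptide ends, had NY1DD means of -0.39 (SE 0.24) and -0.34 (SE 0.20). The mean of Furin rests on single arrays, with -0.22 without replicate 1, -0.77 without replicate 2 and -0.19 without replicate 3. Ctsl, a cathepsin that can process proenkephalin, had -0.45 (SE 0.26) in C57BL/6J and a difference of 0.37 (SE 0.41). It had a value on 2 of 3 NY1DD arrays, and with its value at the lower limit kept the difference was -1.82. Cpm, a membrane carboxypeptidase, had -0.24 (SE 0.21) in C57BL/6J, and Pcsk4, a convertase best known from testis, had a difference of 0.39 (SE 0.33).

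Granins and proteins of dense-core granules, the organelles in which Cpe acts, had 10 of 17 listed genes measured. In NY1DD 8 of 10 were positive (median 0.27) and in C57BL/6J 7 of 10 (median 0.09), while the strain difference was positive for 5 of 10 (median -0.02), with 0 past the adjusted threshold (limma). Chga, chromogranin A, went the other way, with -0.35 (SE 0.12, adjusted p = 0.573, limma) in NY1DD and -0.21 (SE 0.12) in C57BL/6J. Cadps, which primes granules for release, had 0.68 (SE 0.23, adjusted p = 0.549, limma) in C57BL/6J and a difference of -0.32 (SE 0.33). Syt7, a calcium sensor of release, had 0.28 (SE 0.14) in NY1DD and a difference of 0.32 (SE 0.20), Ptprn2, a granule membrane protein, 0.31 (SE 0.20) in NY1DD, Rab3a 0.29 (SE 0.16) in C57BL/6J, and Scg2, a granin, a difference of -0.31 (SE 0.26). The median of the list was 0.36, -0.08 and 0.27 in NY1DD, against 0.04, -0.12 and 0.21 in C57BL/6J, so in both strains it was lowest on replicate 2.

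Enzymes that degrade opioid peptides had 5 of 15 listed genes measured, and neprilysin (Mme) was not analysed here. In NY1DD 3 of 5 were positive (median 0.13), in C57BL/6J 4 of 5 (median 0.18) and for the difference 3 of 5 (median 0.00), with 0 past the adjusted threshold (limma). Dpp3, which cleaves enkephalins, had 0.19 (SE 0.14) in NY1DD and 0.18 (SE 0.14) in C57BL/6J, and Ece1 had -0.15 (SE 0.15) and -0.16 (SE 0.15). Ide, the insulin-degrading enzyme, had 0.27 (SE 0.21) in NY1DD and a difference of 0.16 (SE 0.29), Anpep, aminopeptidase N, 0.27 (SE 0.25) in C57BL/6J and a difference of -0.14 (SE 0.36), and Prcp a difference of -0.60 (SE 0.64).

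The precursors of other neuropeptides, which share the processing pathway, had 7 of 35 listed genes measured. In NY1DD and in C57BL/6J 3 of 7 were positive (medians -0.05 and -0.01), and for the difference 4 of 7 (median 0.00), with 0 past the adjusted threshold (limma). Cartpt had -0.46 (SE 0.16, limma unadjusted p = 0.0251, adjusted p = 0.574) in NY1DD and -0.31 (SE 0.16) in C57BL/6J, and a difference of -0.14 (SE 0.23). Npy, neuropeptide Y, had 0.36 (SE 0.16) in NY1DD and 0.18 (SE 0.16) in C57BL/6J, with a difference of 0.18 (SE 0.22). Grp, gastrin-releasing peptide, had -0.43 (SE 0.26) and -0.31 (SE 0.26), and Sst, somatostatin, had a difference of 0.42 (SE 0.56).

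Markers of the main cell classes give the composition of the samples only as ratios. The median of 13 pan-neuronal genes lay between -0.08 and 0.21 over the 6 arrays, of 11 astrocyte genes between -0.09 and 0.05, of 10 oligodendrocyte genes between 0.03 and 0.12, of 5 microglia genes between -0.11 and 0.14, and of 7 endothelial genes between -0.01 and 0.26. Without levels, the presence of brain RNA cannot be read from these ratios.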

How the data were processed

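Log ratios of 6 arrays were analysed. The deposited values are natural logs (ln) of a ratio of the channels: the base was inferred from their common lower limit, ln 0.01. Per the labels, RNA was labelled directly with Cy5 (naloxone) or Cy3 (saline). How the authors scanned, corrected, normalised and filtered spots is not given in the sources used here. Spots numbered 11532, and 30 control spots were removed. After conversion to log2, 293 values at the lower limit, in 263 probes, became missing. Probes with under 2 values in either strain were dropped, array medians were subtracted, and probes sharing one symbol were averaged, giving 11340 probes in 9685 features, of which 6146 were genes. By gene number, 7894 of the 7906 probes with a single symbol matched RefSeq. A model with one mean for each strain was fitted with limma (version 3.58.1, R 4.3.3), leaving 4 residual degrees of freedom. Its p-values are two-sided, adjusted by Benjamini-Hochberg over features, or over probes where each was fitted on its own, with a threshold of 0.05; SE and 95% intervals are limma's. The fit was also run on simulated data with independent normal noise, which cannot show a dye bias or dependence between arrays. The members and gene lists were chosen with earlier results of these data known. From each of the 6 pathway lists, the 3 genes with the smallest limma p in NY1DD, C57BL/6J and the difference are named, and for each member the 3 genes with the highest correlation; cell type markers are given by counts and medians. The comparison of probe pairs and the averaging of arrays with one title number were added after the values were seen. Alternatives changed one step at a time.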

Additional observations from a re-analysis of the deposited data

Results flagged for a closer look

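Penk, the enkephalin precursor, had every NY1DD array above 0 and every C57BL/6J array below 0 on its gene mean, with a strain difference of 0.62 on the log2 scale. Rgs7 had the same pattern with 0.98, and so did Cpe probe 108b8 with 1.16. The difference itself was tested with limma and did not pass in any of the 3 (adjusted p = 0.969 for Penk and for Rgs7 and 0.972 for 108b8). Of features measured on all 6 arrays, 1.14% share the pattern, and the share of single probes was not computed. Only the members, the Penk and Cpe probes and the named list genes were checked for it. Rgs7 was named for its small limma p in these comparisons, so that share is not a fair background for it. Neither Penk probe had the pattern on its own: 11g8 read 0.11 on C57BL/6J replicate 2 and 12e1 read -0.01 on NY1DD replicate 1. The other 2 Cpe probes had strain differences of -0.40 and -0.27, which ran from -0.61 to -0.14 and from -0.44 to -0.04 when 1 array was left out at a time.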

How the results depend on the processing

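No setting gave a feature past the threshold: limma called 0 features in each comparison under every alternative run. The adjusted p of the Penk strain difference ran from 0.815 to 1, with values from 0.49 to 0.70. With a replicate block it was 0.62 (adjusted p = 0.945), and Pomc had an NY1DD mean of 0.47 (adjusted p = 0.602) under the block, which changed no call. Equal numbers are not stated to pair arrays: the deviations of same-numbered arrays correlated at -0.07, 0.06 and 0.02, and not every array correlated best with its own number. Of 276 comparisons of member genes with an alternative 24 changed sign, as did 1 of 235 for member probes, none with a call. The cause was not tested. These shares do not measure stability, because some of the comparisons could hardly change a sign. The replicate block left every member estimate as it was. Leaving out an array of one strain moves the mean of the other only through filter and centring. Fitted on its own, Cpe probe 2a7 gave an NY1DD mean of -0.23, a difference of -0.40 and an average of -0.0323, probe 2g5 a difference of -0.27, and probe 108b8 a C57BL/6J mean of -0.31; Penk probe 12e1 gave an average of -0.0698, and Syt7 probe 99f3 an NY1DD mean of -0.047 (Syt7 with the median of probes, -0.0273). The average of Pdyn was 0.0199 without centring and 0.0206 with arrays scaled to one spread. After well position correction Pdyn had an NY1DD mean of -0.0466 and a difference of -0.0119, and Anpep a difference of 0.11. With values at the lower limit kept, the difference of Ctsl was -1.82. Leaving out 1 array at a time, Pdyn ran from -0.21 to 0.24 in NY1DD, -0.17 to 0.15 in C57BL/6J, -0.17 to 0.28 in the difference and -0.13 to 0.10 in the average. Pomc ran from -0.0349 to 1.32 in NY1DD, -0.42 to 0.95 in C57BL/6J and -0.48 to 1.17 in the difference. The average of Penk ran from -0.0095 to 0.11, and the C57BL/6J mean of Cpe probe 2a7 from -0.10 to 0.37. Among list genes, the difference ran from -0.09 to 0.32 for Ide, -0.36 to 0.26 for Anpep, -0.22 to 0.90 for Sst, -0.28 to 0.0032 for Cartpt and -1.02 to 0.12 for Prcp, and Rgs4 in C57BL/6J from -0.0117 to 0.32. Leaving out 1 array moved by over 1.5 times, or turned, 12 of 16 member gene values, 9 of 15 member probe values and 30 of 42 values of other named genes, none of them a call. With the 2 C57BL/6J arrays that share a title number averaged, chosen after seeing the data, the Penk difference was 0.58. The title number as a random block could not be fitted, as limma returned no correlation; the cause was not tested. The number of arrays limits the precision, and signal over background is unknown.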
